A study of Saccharomyces cerevisiae with 29 samples.

Results

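The nuclear pore complex is the channel through the nuclear envelope by which RNA leaves the nucleus and proteins move in and out. Its proteins are built into stacked rings: an inner ring next to the pore membrane, outer rings on both faces, filaments that reach into the cytoplasm and a basket that reaches into the nucleus. Proteins with phenylalanine-glycine (FG) repeats line the channel and bind the transport receptors, and the basket holds Mlp1 and Mlp2, long coiled-coil proteins at which messenger RNA and some active genes gather. The 30 genes described here encode subunits of this complex and were taken by name from the coding rows of the table, which holds 5798 coding genes. All 30 had an exact symbol match in RefSeq, all 30 passed the filter on low values (a mean of at least 10 normalized counts over all libraries) and all were tested. MLP1 and MLP2 are shown apart from the other 28, because the series also profiled Mlp1 on chromatin, which was not analysed here.

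Total RNA was measured in 17 libraries of Saccharomyces cerevisiae, as strand-specific reads after removal of ribosomal RNA. Per the labels, MATa cells growing in YEP medium (2% glucose) were held in G1 by a 170 min exposure to α-factor, a mating pheromone, at 5 µg/ml and 25 °C. Wild type had 4 libraries and ku70Δ had 1, while rad50Δ, rrp6Δ, xrn1Δ, mre11Δ and mre11-H125N had 2 each. A further 2 wild-type libraries came from cells released from G1 into S phase with 0.033% methyl methanesulfonate (MMS, a DNA alkylating agent) for 60 min. All strains shared RAD5 and GAL, the auxotrophies ura3, ade2-1 and trp1-1, mutant alleles of LEU2 and HIS3, and can1-100. The deletions were rad50::KAN, mre11::HIS, ku70::HIS, rrp6::TRP and xrn1::ADE2, so the xrn1Δ strain carries ADE2 where the others are ade2-1. The rad50Δ and rrp6Δ strains also carry URA3::GPD-TK7, which wild type lacks, and mre11::mre11-H125N replaces the gene by a nuclease-site mutant. Rad50 and Mre11 belong to the MRX complex of DNA end processing, Ku70 to the Ku complex that binds DNA ends, Rrp6 to the nuclear exosome, and Xrn1 is the main cytoplasmic 5′ to 3′ exonuclease of RNA.

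Values are normalized read counts, and a change is a log2 difference of group means with its standard error from limma, with the fold taken from the group means. A gene is said to have risen or fallen where its p, adjusted by the Benjamini-Hochberg method over all rows tested, was under 0.05. The labels do not say that the libraries of a group came from separate cultures, so the p-values reflect the spread among these libraries, which may be technical. All 7 comparisons with wild type in G1 share its 4 libraries. In bulk RNA, fewer cells of one state and less RNA per cell cannot be told apart.

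Coding depth ran from 7.42 to 32.6 M reads, and the lowest member value rested on 155 reads. The deleted gene was at 0 to 15.8 normalized counts in its own strain, against 499 to 11927 in wild type. The 4 a-cell marker genes summed to 28716 or more in every G1 library, against at most 4880 for 4 α-cell markers, and with MMS to 2278 and 2719 against 263 and 234. Some libraries stood apart within their group. The mean of 30 G1/S genes was 1.63 above the wild-type mean on the log2 scale in wild type 1 and −0.66 to −0.47 in the other three, 1.32 and 0.21 in the rad50Δ libraries, and 2.56 and 0.50 in the mre11Δ libraries. With MMS this G1/S mean was 1.90 and 2.06, below that of mre11Δ 1. The mean of 8 histone genes was 2.62 in mre11Δ 1, 2.34 and 2.66 with MMS, and at most 0.77 in the other G1 libraries. The mean of 25 pheromone response genes was −0.95 in wild type 1, −0.74 in rad50Δ 1 and −1.85 in mre11Δ 1. It was 0.16 to 0.57 in the other G1 libraries, and −3.97 and −3.58 with MMS. Wild type 1 and 2 were also sequenced less deeply (15.5 and 11.1 M coding reads) than wild type 3 and 4 (22.9 and 20.1 M). The median over 83 genes of chromosome I was 2.09 and 2.10 times the wild-type mean in the mre11Δ libraries and 1.38 and 1.43 times in the rad50Δ libraries.

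In wild type the pore genes were moderately and evenly expressed. Per kilobase of the row, the member median was 989 normalized counts, against 657 over all coding genes, and 24 of the 30 lay above that coding median. Only SEH1 lay above the 75th percentile of coding genes. Levels per kilobase spanned 5.5-fold, from SEH1 at 1746 ± 338 (SD, n = 4) to NUP42 at 318 ± 8.03 (SD, n = 4). The genes were long, with a median of 2555 bp against 1213 bp for coding genes, and 27 of 30 exceeded the coding median.

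**Figure D1:**
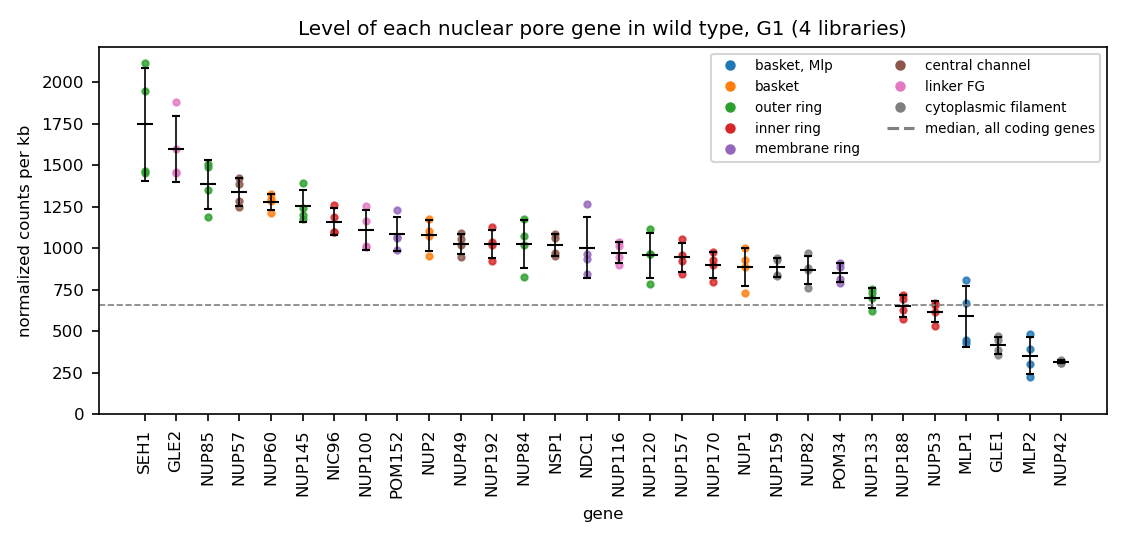
Level of each pore gene in wild type in G1, as normalized counts per kilobase of its row, ordered from high to low; points are the 4 libraries, coloured by place in the pore, and bars are the mean ± SD. SEH1 stands highest at a mean of 1746, NUP42 lowest at 318, and the dashed line marks the coding median of 657.

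No place in the pore held one level. Of the outer ring (the Y-shaped scaffold complex), SEH1 came first, followed by NUP85 at 1386 ± 148 and NUP145 at 1252 ± 96.4 (SD, n = 4), while NUP133 stood at 701 ± 58.1 (SD, n = 4). The inner ring ran from NIC96, which anchors the channel proteins, at 1161 ± 80.2 down to NUP53 at 619 ± 63.1 (SD, n = 4). The 3 central channel proteins form one trimer, and their genes had levels of 1338 ± 83.4 (NUP57), 1028 ± 60.2 (NUP49) and 1018 ± 65.6 (NSP1) (SD, n = 4). NUP49 and NSP1 differed by less than their spread.

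The lower end was held by some genes of the filaments and the basket. Beside NUP42, a cytoplasmic filament FG protein, it held MLP2 at 353 ± 112, GLE1 at 416 ± 52.7, and MLP1 at 590 ± 182 (SD, n = 4). Gle1 activates the helicase Dbp5, which strips export factors from messenger RNA at the cytoplasmic face. NUP82 and NUP159, the other filament genes, stood at 870 ± 86.0 and 885 ± 57.1 (SD, n = 4), so the filament genes spanned much of the range. Of the other basket genes, NUP60 stood at 1281 ± 49, NUP2 at 1077.5 ± 92.8 and NUP1 at 887 ± 115 (SD, n = 4).

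At the median, wild-type replicates of the pore genes varied less than those of coding genes. The median coefficient of variation over the 4 libraries was 9.36%, against 14.9% over the coding genes tested. These lists were not matched for count level, and the pore genes were longer and higher per kilobase. The part of count level in the difference was not tested. Coefficients above 15% were those of 4 genes, MLP2 at 31.7%, MLP1 at 30.9%, SEH1 at 19.4% and NDC1 at 18.2%. The most even was NUP42 at 2.53%.

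MLP1 (YKR095W, chromosome 11, 619805 to 625432, plus strand, build R64) split the wild-type libraries. It had 2525 and 2425 normalized counts in wild type 1 and 2, and 3779 and 4553 in wild type 3 and 4. MLP2 (YIL149C, chromosome 9, 63028 to 68067, minus strand) had 1533 and 1146 in the first pair, and 1987 and 2448 in the other. For both genes every library of the shallower pair lay below every library of the deeper pair, by 0.75 for MLP1 and 0.73 for MLP2 on the log2 scale. Of the coding genes, 6.79% had a larger difference between the pairs than MLP1, and 7.15% a larger one than MLP2. Of the 30 members, 6 had wild type 1 and 2 both below 3 and 4, where the background was 20.3%, and 9 had them both above, where the background was 25%. GLE1 was the next of the 6, at 574.6 and 629.8 against 762 and 721.

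**Figure D2:**
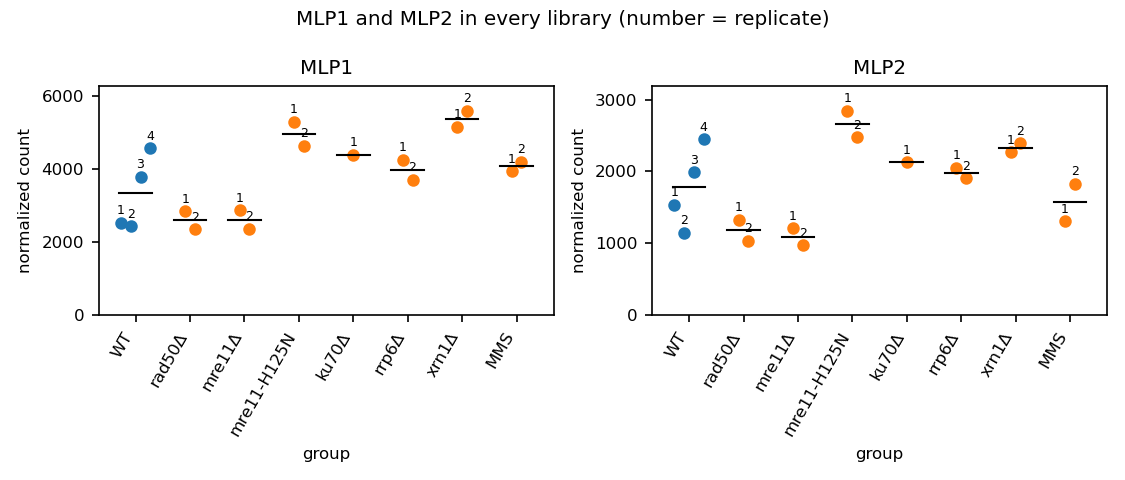
Normalized counts of MLP1 and MLP2 in each library; points carry the replicate number, black lines are group means, and wild type in G1 is blue. Wild type 1 and 2, rad50Δ and mre11Δ lie at 2342 to 2858 for MLP1, and the other G1 libraries at 3694 to 5591.

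The mutants fell on either side of this split. For MLP1, the rad50Δ libraries had 2833 and 2342 and the mre11Δ libraries 2858 and 2357, near wild type 1 and 2. The mre11-H125N libraries had 5281 and 4629, rrp6Δ 4246 and 3694, ku70Δ 4386 and xrn1Δ 5152 and 5591. For MLP2, the values were 1327 and 1031 in rad50Δ, 1210 and 970.0 in mre11Δ, 2847 and 2477 in mre11-H125N, 2051 and 1902 in rrp6Δ, 2127 in ku70Δ, and 2270 and 2392 in xrn1Δ. Among the G1 libraries with recovered reads, depth moved with this order, since the rad50Δ and mre11Δ libraries had 7.42 to 13.6 M coding reads and the mre11-H125N, rrp6Δ and xrn1Δ libraries 18.8 to 32.6 M. The MMS libraries, with 8.23 and 11.9 M coding reads, lay outside this order for MLP1, at 3936 and 4191. For MLP2 they had 1307 and 1826, below the mre11-H125N, rrp6Δ and xrn1Δ libraries. The part of depth in these levels was not tested.

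MLP1 rose in xrn1Δ, 1.62-fold (log2 0.74 ± 0.22, limma adjusted p = 0.00859), and both xrn1Δ libraries lay above all 4 of wild type. Without xrn1Δ 2, the adjusted p was 0.0673. MLP2 stood at 0.45 ± 0.25 there (limma adjusted p = 0.129), and neither gene was called in the other 6 comparisons with wild type. In mre11-H125N both lay above all wild-type libraries, but the lower library barely did. It had 4629 against 4553 in wild type 4 for MLP1, and 2477 against 2448 for MLP2. Against the mean of the 4 wild-type libraries, MLP1 differed by 0.63 ± 0.22 (limma adjusted p = 0.122) and MLP2 by 0.64 ± 0.25 (0.155). The smallest log2 differences under any alternative setting were 0.253 and 0.268. In mre11Δ the log2 differences were −0.30 ± 0.22 for MLP1 (limma adjusted p = 0.341) and −0.66 ± 0.25 for MLP2 (0.0759), and in rad50Δ −0.31 ± 0.22 (0.323) and −0.55 ± 0.25 (0.130).

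Which wild-type pair was used decided several of these calls. The pairs were taken apart after the values were seen, and MLP1 and MLP2 themselves differ between them. The direction therefore leans with the pair kept, and these calls are not independent support for a change. Against wild type 3 and 4 only, MLP1 and MLP2 were lower in rad50Δ (limma adjusted p = 0.00547 and 0.00485) and in mre11Δ (0.00573 and 0.00254). Against wild type 1 and 2 only, neither gene was called in those deletions, and MLP1 was higher in mre11-H125N (limma adjusted p = 0.00316), rrp6Δ (0.00289), ku70Δ (0.0195) and with MMS (0.00213). MLP2 was then higher in mre11-H125N (limma adjusted p = 0.0128), rrp6Δ (0.0423) and xrn1Δ (0.004), and against wild type 3 and 4 only it was lower with MMS (0.0387). Without wild type 2, MLP2 was lower in rad50Δ (limma adjusted p = 0.0211) and mre11Δ (0.0114), and without wild type 4 it was higher in xrn1Δ (0.0250) and MLP1 was higher with MMS (0.0419).

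The mre11 alleles were also compared directly, so the wild-type mean does not enter their difference. The standard error came from the fit of all 17 libraries, and so includes the spread within wild type. MLP2 was 2.44-fold lower in mre11Δ than in mre11-H125N (log2 −1.29 ± 0.28, limma adjusted p = 0.0115), the largest difference of any member in any comparison made. MLP1 was 1.90-fold lower (log2 −0.93 ± 0.25, limma adjusted p = 0.0273). The libraries of the alleles did not overlap for either gene. Leaving out 1 of the 4 libraries at a time gave limma adjusted p of 0.0563 to 0.186 for MLP1. For MLP2 it was 0.0503 without mre11Δ 2 and 0.108 without mre11-H125N 1. The mre11Δ libraries had 7.42 and 8.87 M coding reads and the mre11-H125N libraries 32.6 and 30.4 M, so allele and depth cannot be told apart here. The alleles also fell on either side of the wild-type split, which was 0.75 for MLP1 and 0.73 for MLP2 on the log2 scale. The part of whatever split wild type in these differences was not tested.

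The upstream neighbours of MLP1 and MLP2 are ribosomal protein genes on the other strand, the paralogs RPL40B (1054 bp from MLP1) and RPL40A (640 bp from MLP2). In xrn1Δ, RPL40B fell from 17607 to 5171 (log2 −1.76 ± 0.14, limma adjusted p = 1.76e-07) and RPL40A from 28164 to 5956 (log2 −2.24 ± 0.11, 8.24e-09). Reads of such paralogs can be hard to assign, and how the counting treated them is not stated. The downstream neighbours lie closer, on the same strand: PCC1, 431 bp from MLP1, was not called in xrn1Δ (log2 −0.17 ± 0.15, limma adjusted p = 0.324), and MCM10, a replication factor gene 299 bp from MLP2, rose (log2 0.53 ± 0.16, limma adjusted p = 0.0102).

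**Figure D3:**
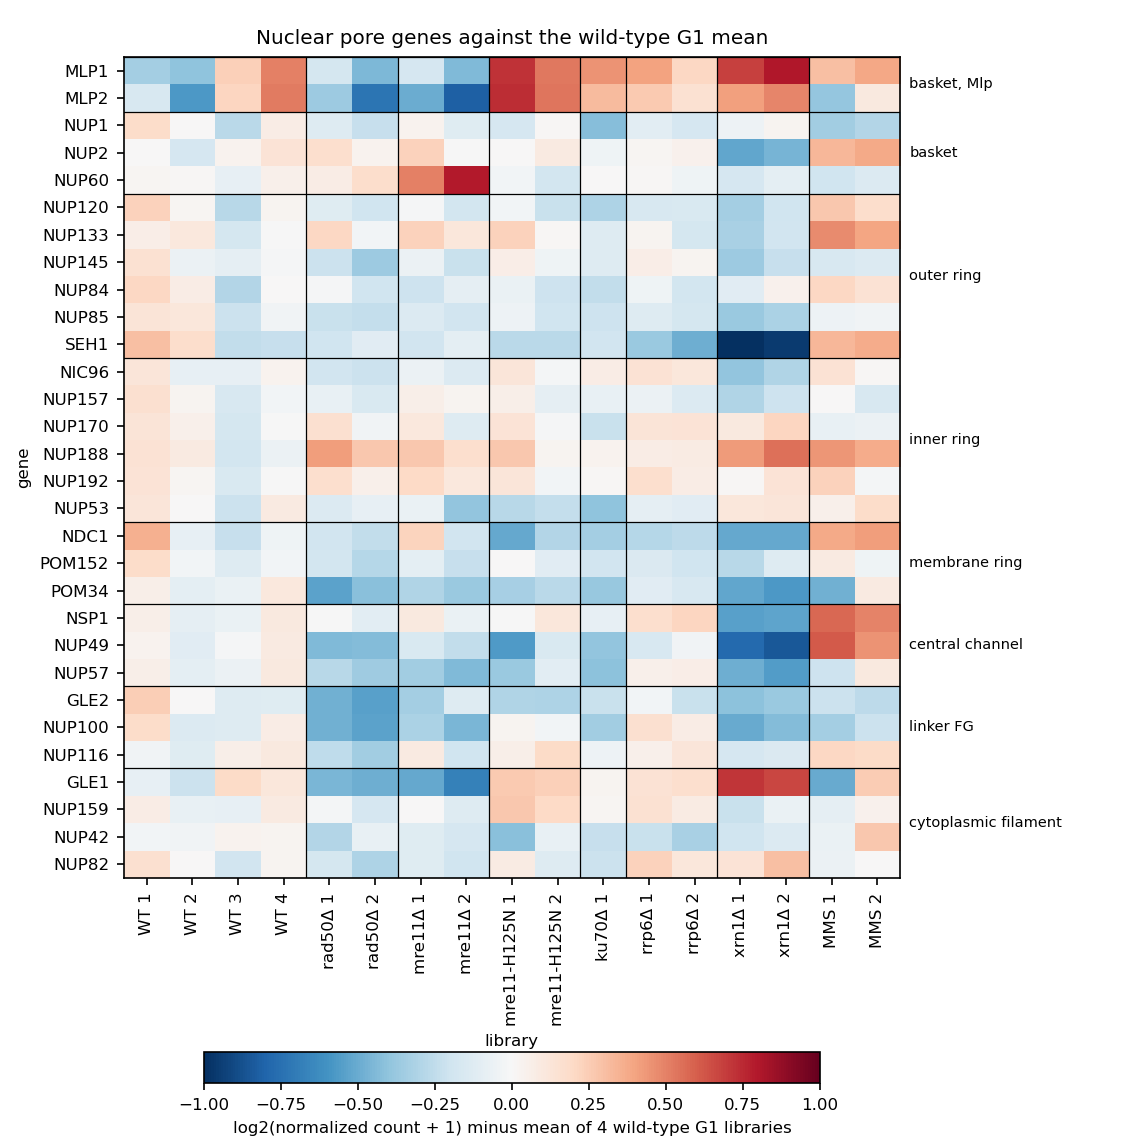
Log2(normalized count + 1) of each pore gene in each library minus the mean of the 4 wild-type G1 libraries, with genes grouped by place in the pore; red is higher and blue lower. Among the strongest colours are SEH1 and NUP49 in xrn1Δ (blue), NUP60 in mre11Δ and MLP1 in xrn1Δ and mre11-H125N (red), and MLP2 in mre11Δ (blue).

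In rad50Δ 5 of the 30 members fell, NUP100, NUP116, GLE2, NUP49 and POM34, where 12.1% of coding genes fell, and NUP188 was the 1 that rose, where 12.8% rose. The member median was −0.19 on the log2 scale, against −0.01 over coding genes. Of the 30 members, 24 lay below 0, where 2822 of 5580 coding genes did. This lean was not particular to rad50Δ, since 22 of 30 lay below 0 in each of ku70Δ, mre11Δ and xrn1Δ. The member median in ku70Δ was also −0.19. All 3 genes placed here in the group labelled linker FG fell in rad50Δ. NUP100 and NUP116 encode paralogous FG proteins. GLE2 was placed with them, and its product binds Nup116 and acts in messenger RNA export. NUP145, placed in the outer ring, was not called. The count for this group therefore rests on how the groups were drawn.

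NUP100 had 2278 and 2200 normalized counts in rad50Δ, against 3617, 2904, 2918 and 3358 in wild type. The groups did not overlap, and the gene was 1.43-fold lower (log2 −0.51 ± 0.11, limma adjusted p = 0.00593). GLE2 had 1253 and 1197 against 2068, 1753, 1596 and 1604, and was likewise 1.43-fold lower (log2 −0.51 ± 0.12, limma adjusted p = 0.00902). NUP116 was 1.23-fold lower (log2 −0.30 ± 0.10, limma adjusted p = 0.0492).

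NUP49, of the channel trimer, fell 1.36-fold, from 1459 ± 85.4 (SD, n = 4) to 1074 and 1079 (log2 −0.44 ± 0.12, limma adjusted p = 0.0189). POM34, a membrane ring protein, fell 1.4-fold, to 527 and 572 from 714 to 822 (log2 −0.48 ± 0.14, limma adjusted p = 0.0256). NUP188, a large inner ring scaffold protein, rose 1.27-fold, to 4311 and 3904 from 2847 to 3584 (log2 0.34 ± 0.11, limma adjusted p = 0.0435). In all 6 genes the rad50Δ libraries lay outside the wild-type range. No member of the outer ring, the cytoplasmic filaments or the basket was called.

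Few of these calls held without a library. Without rad50Δ 1 only NUP100 was called, and without rad50Δ 2 none was. GLE2 then had limma adjusted p of 0.0517 and 0.0952, NUP49 0.10 and 0.122, POM34 0.161 and 0.108, NUP116 0.126 and 0.282, and NUP188 0.258 and 0.122. Without rad50Δ 2, NUP100 had 0.0713. Without wild type 4, POM34 (0.0559), NUP116 (0.102) and NUP188 (0.0847) lost their calls, and without wild type 3, NUP116 (0.0770) and NUP188 (0.0755) did. With the number 1 libraries of all 3 strains (wild type, mre11Δ, rad50Δ) left out, NUP100 and GLE2 were the 2 members called.

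The rrp6Δ strain carries the same URA3::GPD-TK7 cassette as rad50Δ, so the pair was compared directly. Of 30 members 8 were lower in rad50Δ, where 12.7% of coding genes were, and 0 were higher, where 13.3% were (edgeR and DESeq2 on the whole reads also called 0 higher). NUP100 was again among them, at 2278 and 2200 against 3563 and 3353 in rrp6Δ (1.54-fold lower, log2 −0.63 ± 0.12, limma adjusted p = 0.00213). The other 7 were GLE1 (log2 −0.63 ± 0.20), NUP82 (−0.42 ± 0.13), NUP116 (−0.39 ± 0.12), GLE2 (−0.39 ± 0.13), NUP57 (−0.38 ± 0.13), NUP145 (−0.34 ± 0.11) and NIC96 (−0.33 ± 0.11), with limma adjusted p of 0.0242 to 0.0432. NUP100 kept its call without each of the 4 libraries, and each of those omissions left 1 call in place of 8. The limma adjusted p of the other 7 then ran from 0.0571 to 0.253. MLP1 and MLP2 had limma adjusted p of 0.0757 and 0.0602 and lay below both rrp6Δ libraries. Both were called lower in a fit of only these groups (limma adjusted p = 0.0133 and 0.00823), and MLP2 with DESeq2 (adjusted p = 0.0383).

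In mre11Δ 1 member rose, NUP60, and 3 fell, GLE1, NUP100 and NUP57. The background was 12.1% of coding genes higher and 11.9% lower, and the member median was −0.14 on the log2 scale against −0.02. NUP60 encodes the basket protein that ties the basket to the pore. It had 2933 and 3602 normalized counts in mre11Δ, against 2101, 2085, 1962 and 2149 in wild type, a 1.58-fold difference (log2 0.65 ± 0.10, limma adjusted p = 0.000834). The ranges did not overlap.

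NUP60 (YAR002W, chromosome 1, 152257 to 153876, plus strand) is the only one of the 30 on chromosome I. In mre11Δ 69 of the 83 other genes there rose and 0 fell, by limma, with a median log2 of 1.11. NUP60 rose less than that, and 70 of the 83 had a larger change. In rad50Δ 41 of the 83 rose and 0 fell, with a median of 0.45, and NUP60 stood at 2180 and 2341 (log2 0.12 ± 0.10, limma adjusted p = 0.401), with 67 of the 83 above it. Medians of the other nuclear chromosomes stayed between −0.09 and 0.15 in these 4 libraries. The part of chromosome I in the NUP60 result was not tested.

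**Figure D4:**
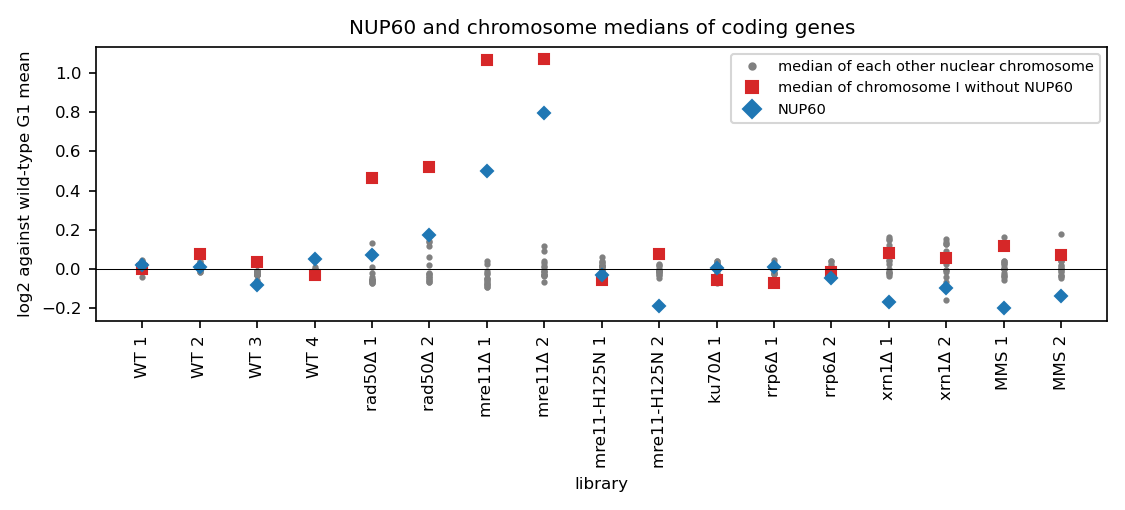
Log2 difference from the wild-type G1 mean, by library, for NUP60 (blue diamonds), for the median of 83 other coding genes of chromosome I (red squares) and for the median of each other nuclear chromosome (grey points). Chromosome I stands at 1.07 in both mre11Δ libraries and at 0.46 and 0.52 in rad50Δ, and NUP60 stands above 0.2 in mre11Δ alone.

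GLE1 (YDL207W, chromosome 4, 88248 to 89864, plus strand) had 469 and 416.6 in mre11Δ, below all wild-type libraries at 574.6 to 762 (1.52-fold lower, log2 −0.59 ± 0.17, limma adjusted p = 0.0293). NUP100 fell 1.31-fold, to 2557 and 2320 from 2904 to 3617 (log2 −0.39 ± 0.11, limma adjusted p = 0.0218). NUP57, of the channel trimer, fell 1.32-fold, to 1704 and 1603 from 2034 to 2318 (log2 −0.39 ± 0.11, limma adjusted p = 0.0240).

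NUP60 was called with any 1 library left out, while the 3 genes that fell each lost the call in several such fits. Without mre11Δ 1 the limma adjusted p was 0.0792 for GLE1, 0.0541 for NUP100 and 0.0742 for NUP57. Without mre11Δ 2 it was 0.148, 0.133 and 0.118, and without wild type 4 it was 0.0639, 0.0507 and 0.0553. GLE1 was also lost without wild type 3 (0.0534), and with the number 1 libraries left out NUP60 was the 1 member called.

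The deletions of RAD50 and MRE11 could not be told apart at most members. A comparison of them, added after the values were seen, called 0 of 30 in limma, where 0.0717% of coding genes were higher and 0.0896% lower. In limma 1 member had an unadjusted p under 0.05, where 397 of 5580 coding genes did. That member was NUP60, at log2 −0.52 ± 0.11 in rad50Δ against mre11Δ (limma adjusted p = 0.118).

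The nuclease-site mutant mre11-H125N had 0 members called against wild type, where 1.04% of coding genes rose and 0.412% fell. There were 9 members with an unadjusted p under 0.05 in limma, where 1517 of 5580 coding genes had one. The edgeR test called 0 members and DESeq2 called 1. The member median was −0.02. The lowest of the 28 was NDC1, a membrane protein shared by the pore and the spindle pole body, at log2 −0.40 ± 0.15 (limma adjusted p = 0.144), and the highest was GLE1 at 0.25 ± 0.17 (0.421).

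Against mre11-H125N, the mre11 deletion had 1 member higher, where 8.62% of coding genes were, and 4 lower, where 7.76% were. NUP60 was 1.69-fold higher, at 2933 and 3602 against 2033 and 1823 (log2 0.76 ± 0.11, limma adjusted p = 0.00152), while 66 of 83 chromosome I genes were higher too. Beside MLP1 and MLP2, GLE1 was 1.79-fold lower, at 469 and 416.6 against 799.6 and 788 (log2 −0.84 ± 0.20, limma adjusted p = 0.0159). NUP100 was 1.31-fold lower (log2 −0.39 ± 0.12, limma adjusted p = 0.0483). GLE1 had a limma adjusted p of 0.0582 without mre11Δ 2, 0.109 without mre11-H125N 1 and 0.0511 without mre11-H125N 2, and NUP100 0.0908 to 0.239 without any of the 4. In a fit of these 4 libraries alone NUP60 had 0.0631.

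In rrp6Δ, which lacks a nuclease of the nuclear exosome, SEH1 alone of the 30 fell, where 9.19% of coding genes fell and 8.64% rose. SEH1 (YGL100W, chromosome 7, 313234 to 314283, plus strand), an outer ring gene whose product also serves a nutrient-sensing complex at the vacuole, had 1397 and 1285 normalized counts. Wild type had 2224, 2044, 1526 and 1538, so the groups did not overlap, and the gene was 1.37-fold lower (log2 −0.43 ± 0.14, limma adjusted p = 0.0359). The wild-type pairs differed at this gene too. The limma adjusted p was 0.0622 without wild type 1, 0.0796 without wild type 2, 0.110 without rrp6Δ 1, 0.222 without rrp6Δ 2 and 0.145 against wild type 3 and 4 only. The highest of the 28 was NSP1 at log2 0.19 ± 0.09 (limma adjusted p = 0.144), and MLP1 and MLP2 stood at 0.31 ± 0.22 (0.325) and 0.21 ± 0.25 (0.573).

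The single ku70Δ library had 0 members called in limma, where 0.430% of coding genes were higher and 0.358% lower. In limma 6 members had an unadjusted p under 0.05, where 821 of 5580 coding genes did. With 1 library there is no replicate spread, and the fit assumed that of the other groups. The count tests were not run on this library. The member median was −0.19 on the log2 scale, against 0.01 over coding genes. Of the 30 members, 22 lay below 0, where 2680 of 5580 coding genes did. The lowest of the 28 was the basket gene NUP1, at 2116 against 2362 to 3240 in wild type (log2 −0.43 ± 0.15, limma adjusted p = 0.237), and the highest NIC96, at 3076 against 2764 to 3184 (0.07 ± 0.12, 0.811).

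In xrn1Δ 16 of the 30 changed, more than in any of the other comparisons made. Of these 13 fell, where 32.8% of coding genes fell, and 3 rose, where 35.1% rose. The member median was −0.23 on the log2 scale, against 0.06 over coding genes. The channel trimer fell in full, as did 3 of 6 outer ring genes and 2 of 3 in each of the membrane ring and the linker FG group. The genes that rose were MLP1 of the basket, NUP188 of the inner ring and GLE1 of the filaments. These libraries also differed from the rest in the mitochondrial rows, whose median was −11.0 and −10.5 on the log2 scale, and in the normalized coding total of 10.7 and 10.8 M, against 18.4 to 21.6 M in wild type. Their part in these results was not tested.

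**Figure D5:**
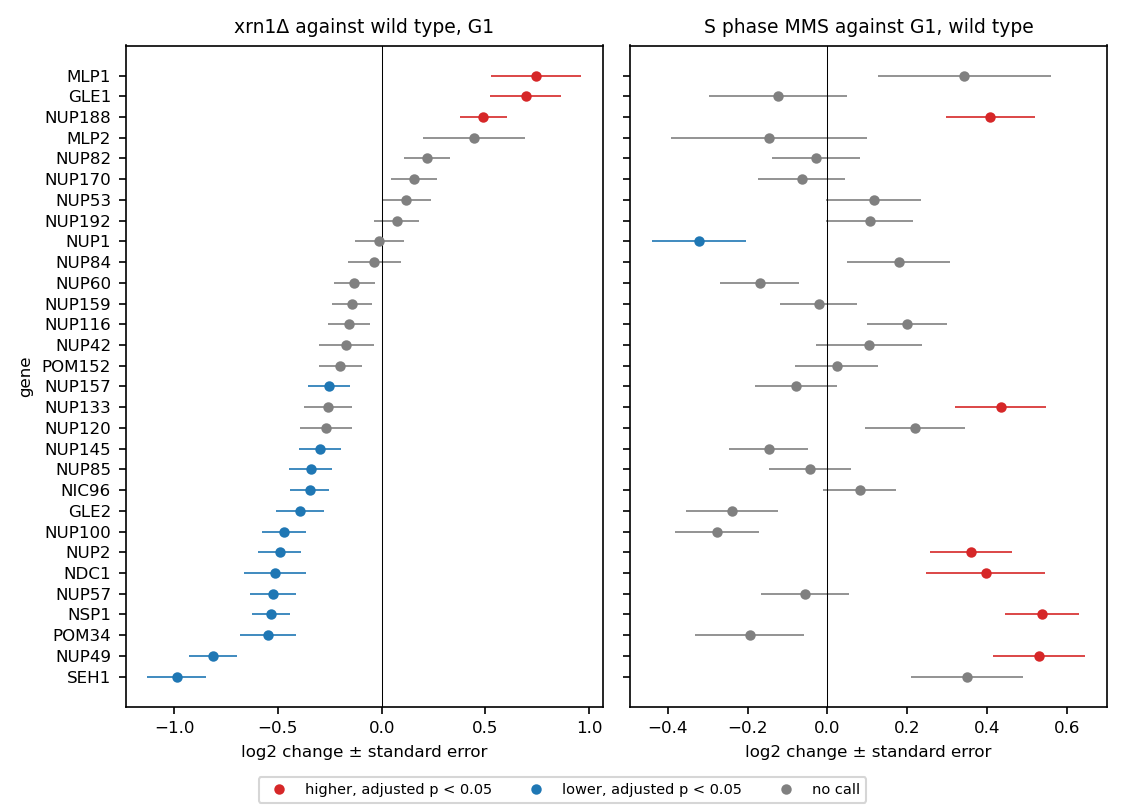
Log2 change ± standard error (limma) of each pore gene in xrn1Δ (left) and in wild type in S phase with MMS (right), both against the same 4 wild-type G1 libraries, ordered by the change in xrn1Δ; red marks higher and blue lower at an adjusted p under 0.05. In xrn1Δ 13 genes are lower and 3 higher, and with MMS 6 are higher and 1 lower.

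SEH1 had 893.6 and 928 normalized counts in xrn1Δ, below every other library of the series. Against wild type, at 1526 to 2224, it was 2.01-fold lower (log2 −0.99 ± 0.14, limma adjusted p = 4.29e-05), the largest fall of the 30. NUP49 had 848 and 809.7, against 1349 to 1549 in wild type (1.76-fold lower, log2 −0.81 ± 0.12, limma adjusted p = 4.09e-05). NUP49 (YGL172W, chromosome 7, 180700 to 182118, plus strand) starts 586 bp from XRN1 on the other strand, the gene replaced by ADE2 in this strain. The next gene downstream, ROK1, also fell (log2 −1.10 ± 0.18, limma adjusted p = 0.000162). Where XRN1 was not replaced, ROK1 fell in rad50Δ (log2 −0.59 ± 0.18, limma adjusted p = 0.0358) and with MMS (−0.83 ± 0.18, 0.00281). It was not called in mre11Δ, mre11-H125N, rrp6Δ or ku70Δ. The part of the marker insertion in the xrn1Δ values of NUP49 and ROK1 was not tested.

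The other genes of the trimer, which lie elsewhere, fell as well. NSP1 had 1811 and 1823, against 2472 to 2815 in wild type (1.45-fold lower, log2 −0.53 ± 0.09, limma adjusted p = 0.000219). NUP57 had 1547 and 1474 against 2034 to 2318 (1.44-fold lower, log2 −0.52 ± 0.11, limma adjusted p = 0.000955). In both, every xrn1Δ library lay below every wild-type library.

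NUP2, a mobile basket protein that aids recycling of the import receptor, had 1621 and 1686 against 2065 to 2549 (1.41-fold lower, log2 −0.49 ± 0.10, limma adjusted p = 0.000969). NUP100 had 2244 and 2352 against 2904 to 3617 (1.39-fold lower, log2 −0.47 ± 0.11, limma adjusted p = 0.00157). The remaining genes that fell were POM34 (log2 −0.55 ± 0.14), NDC1 (−0.51 ± 0.15), GLE2 (−0.39 ± 0.12), NIC96 (−0.35 ± 0.09), NUP85 (−0.34 ± 0.10), NUP145 (−0.30 ± 0.10) and NUP157 (−0.25 ± 0.10), with limma adjusted p of 0.00324 to 0.0436.

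GLE1 rose to 1098.5 and 1063, above every other library, from 574.6 to 762 in wild type (1.61-fold, log2 0.69 ± 0.17, limma adjusted p = 0.00329). NUP188 rose to 4347 and 4750 from 2847 to 3584 (1.4-fold, log2 0.49 ± 0.11, limma adjusted p = 0.00175). NUP192, its inner ring relative, stood at 5200 and 5688 and overlapped wild type at 4654 to 5688. The difference between the changes of these related scaffold genes was not tested.

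Without xrn1Δ 1, 10 members were called, and GLE2 (limma adjusted p = 0.0675), NDC1 (0.0514), NIC96 (0.0654), NUP85 (0.0805), NUP145 (0.173) and NUP157 (0.240) were lost. Without xrn1Δ 2, MLP1, NDC1 (0.0536) and NUP157 (0.0921) were. NUP157 was also lost without wild type 1 (0.0776), wild type 2 (0.0712) or wild type 4 (0.0574).

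In S phase with MMS, 6 members rose and 1 fell, where 23.5% of coding genes rose and 23.5% fell. Phase and drug change together between these groups and cannot be told apart. The member median was 0.05 on the log2 scale. Of the channel trimer NSP1 and NUP49 rose, and NUP57 stood at 1880 and 2321 against 2034 to 2318 and was not called (log2 −0.06 ± 0.11, limma adjusted p = 0.708).

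NSP1 had 3928 and 3716 normalized counts, against 2472 to 2815 in wild type in G1 (1.45-fold, log2 0.54 ± 0.09, limma adjusted p = 0.000513). NUP49 had 2225 and 1991 against 1349 to 1549 (1.44-fold, log2 0.53 ± 0.12, limma adjusted p = 0.00262). Both lay above every G1 library of any strain.

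NUP133, which anchors the outer ring near the membrane, had 3361 and 3198 against 2154 to 2614 (1.35-fold, log2 0.43 ± 0.11, limma adjusted p = 0.00845). NUP188 had 4396 and 4188 against 2847 to 3584 (1.32-fold, log2 0.41 ± 0.11, limma adjusted p = 0.0102). NUP2 had 2933 and 3029 against 2065 to 2549 (1.28-fold, log2 0.36 ± 0.10, limma adjusted p = 0.0133). In these genes too the groups did not overlap.

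NDC1 had 2534 and 2606, above the wild-type values of 2496, 1842, 1667 and 1896 (1.3-fold, log2 0.40 ± 0.15, limma adjusted p = 0.0488). Its next highest values were in wild type 1 and in mre11Δ 1 (2272), the G1 libraries with the highest mean of G1/S genes, and the other 13 lay at 1366 to 1896. Among those 13 was rad50Δ 1, next in mean of G1/S genes (1.32), with NDC1 at 1710. This was below wild type 2 and 4 (1842 and 1896), whose G1/S means were −0.50 and −0.66. The part of cell cycle state in these levels was not tested. NUP1 fell 1.26-fold, to 2234 and 2325 from 2362 to 3240 (log2 −0.32 ± 0.12, limma adjusted p = 0.0442). MLP1 had 3936 and 4191 and MLP2 1307 and 1826, within the range of wild type in G1.

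NSP1 and NUP49 were called with any 1 library left out. Without MMS 1 the limma adjusted p was 0.0768 for NUP133, 0.0867 for NUP188, 0.0600 for NUP2, 0.153 for NDC1 and 0.202 for NUP1, leaving 2 calls. Without MMS 2 it was 0.0780 for NUP2, 0.172 for NDC1 and 0.109 for NUP1. Of the G1 libraries, leaving out wild type 2, 3 or 4 gave 0.0878, 0.105 and 0.0872 for NDC1, and leaving out wild type 1, 2 or 4 gave 0.0767, 0.0658 and 0.0899 for NUP1.

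Of the members, 10 were called in none of the 7 comparisons with wild type in G1. The share of coding genes called in none of them is not given here, so this count has no background. In xrn1Δ alone 3792 of 5580 coding genes were called. The 10 members were MLP2, the outer ring genes NUP84 and NUP120, the inner ring genes NUP53, NUP170 and NUP192, the membrane ring gene POM152, and the filament genes NUP42, NUP82 and NUP159. A missed threshold does not show that their levels were equal.

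Few pore genes had an annotated noncoding transcript on the other strand. An annotated XUT, SUT or CUT (classes of cryptic or unstable RNA) overlapped 3 of the 30 on the opposite strand (10%), against 1598 of the 5798 coding genes (27.6%). CUT471 lies wholly inside GLE1, while CUT595 covers 72 bp of SEH1 and XUT0822 15 bp of NUP1. CUT471 was scarce, at 5.57 to 18.7 normalized counts in wild type, 37.2 and 31.4 in rrp6Δ (limma adjusted p = 0.0601), 33.2 and 22.9 in xrn1Δ (0.0702), and 0 and 2.83 with MMS (0.00361). CUT595 was below the filter on low values. XUT0822 had 15.3 to 47.7 in wild type, and 28.1 and 34 in xrn1Δ (limma adjusted p = 0.963).

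The machinery that uses the pore was followed in a list of 55 further genes: 15 importins and exportins, 8 genes of the Ran cycle (the GTPase that gives transport its direction), 13 of messenger RNA export, 5 of TREX-2, 6 of pore assembly and membrane, 4 basket partners and 4 pore subunits outside the 30. In xrn1Δ 24 of 55 fell and 16 rose, where 32.8% of coding genes fell and 35.1% rose, and the counts of its groups are to be read against the same shares. Of the Ran cycle 6 of 8 fell and 0 rose in limma, led by GSP1, the Ran gene itself, which fell from 8945 to 2664 (log2 −1.75 ± 0.10, limma adjusted p = 2.92e-08), and YRB1, a Ran-binding protein (log2 −1.46 ± 0.09, 3.25e-08). Of the importins and exportins 10 of 15 fell and 0 rose. Of the basket partners 3 of 4 rose, among them PML39, which docks on Mlp1 (log2 1.51 ± 0.13, limma adjusted p = 5.20e-07). YRA1, an export adaptor, rose from 4954 to 19365 (log2 1.97 ± 0.13, limma adjusted p = 5.55e-08).

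In the other comparisons fewer of the 55 were called. In rad50Δ 2 rose and 8 fell, where 12.8% of coding genes rose and 12.1% fell. In mre11Δ 2 rose and 9 fell, where the shares were 12.1% and 11.9%. POM33, a pore membrane protein, rose in both, to 634 and 637 from 379 (log2 0.76 ± 0.16 and 0.77 ± 0.16, limma adjusted p = 0.00592 and 0.00553), as it did in mre11-H125N (0.80 ± 0.16, 0.0303). The other gene that rose in both deletions was GSP2, a Ran gene of low level (log2 1.09 ± 0.22 and 0.72 ± 0.22, limma adjusted p = 0.00593 and 0.0398). HEH2, an inner nuclear membrane protein, fell in both (log2 −0.43 ± 0.10 and −0.71 ± 0.10, limma adjusted p = 0.010 and 0.000485), as did SEM1 of TREX-2 (−0.51 ± 0.14 and −0.83 ± 0.14, 0.0251 and 0.00193).

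In mre11-H125N 2 of the 55 rose and 0 fell in limma, where 1.04% of coding genes rose and 0.412% fell. Beside POM33 this was ESC1, a membrane partner of the basket (log2 1.00 ± 0.19, limma adjusted p = 0.0243). In rrp6Δ 5 rose and 5 fell, where 8.64% of coding genes rose and 9.19% fell. NAB2, a poly(A)-binding protein of export, rose from 1328 to 3119 (log2 1.23 ± 0.12, limma adjusted p = 7.69e-06), and MOG1, a Ran-binding protein, fell (−1.15 ± 0.28, 0.00908). With MMS 8 rose and 10 fell, where 23.5% of coding genes rose and 23.5% fell, with NAB2 at 3850 (log2 1.53 ± 0.12, limma adjusted p = 7.54e-07) and the importin gene PSE1 down to 8113 from 14445 (−0.82 ± 0.13, 0.000230). In ku70Δ 0 of 55 were called in limma, where 0.430% of coding genes were higher and 0.358% lower. In limma 8 of the 55 had an unadjusted p under 0.05, where 821 of 5580 coding genes did.

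Between the mre11 alleles 11 of the 55 were lower in the deletion and 0 higher in limma, where 7.76% of coding genes were lower and 8.62% higher. The smallest adjusted p were those of HEH2 (log2 −0.70 ± 0.12, limma adjusted p = 0.00243) and ULP1, a SUMO protease held at the basket (−0.75 ± 0.14, 0.00533). Between rad50Δ and rrp6Δ 3 were higher and 14 lower, where 13.3% and 12.7% of coding genes were. GSP2 (log2 1.16 ± 0.26, limma adjusted p = 0.00508) was higher in rad50Δ, and NAB2 (−1.21 ± 0.14, 6.17e-05) was lower.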

How the data were processed

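The 17 strand-specific total RNA libraries were used, and 12 chromatin samples of the series were left out. Per the submitters' processing notes, STAR 2.5.3, SAMtools 0.1.19 and DESeq2 (no version) were used with build R64. The table deposited by the authors holds signal values: reads counted in each row, scaled by the size factor of the library. All values (100%) lay within 0.02 of whole multiples of 1 step, so whole reads were recovered in 16 of 17 libraries. The ku70Δ step lay within 1 percent of 1, so its reads were not recovered. Another 33 value columns (25 densities, and group means) stayed out. The counting program is not given in the sources used here.

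Log2(value + 1) was fitted with limma 3.58.1 (R 4.3.3), with trend and robust moderation, over 17 libraries in 8 groups. This left 9 residual degrees of freedom. Benjamini-Hochberg adjustment ran over 16559 rows with a mean of at least 10 (5580 coding), at a threshold of 0.05. A fold change on this scale understates that of low rows. The fit was tested on simulated data, drawn independently for each library with the same dispersion in all rows. They held no split within wild type, so this test does not cover that split. Rows of genes include ORF rows only; CUT, SUT and XUT rows overlap one another.

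Members and lists were chosen with earlier results of these data known. All members past the threshold, MLP1, MLP2 and the extremes of each comparison are named. From the 55 genes, the 2 with the smallest adjusted p per direction were eligible. Alternative settings were a pseudocount of 0.5 or 8, a mean of at least 50 or none, TMM and median-of-ratios scaling, edgeR 4.0.16 and DESeq2 1.42.0 on whole reads, only the groups compared, a replicate block, each library left out, and transcript rows. Added after the data were seen were each wild-type pair alone, no number 1 libraries, and rad50Δ against mre11Δ. The edgeR test called 1397 coding genes in rad50Δ and 3834 in xrn1Δ, and DESeq2 1689 and 3930, against 1391 and 3792 in limma.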

Additional observations from a re-analysis of the deposited data

Results flagged for a closer look

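The mre11 alleles differed from each other at 5 members by the test of the difference in limma (mre11Δ minus mre11-H125N, 2 libraries each). In the deletion 1 of 30 was higher and 4 were lower, where 8.62% of coding genes were higher and 7.76% lower. On the log2 scale the difference was 0.755 at NUP60, −1.29 at MLP2, −0.843 at GLE1, −0.388 at NUP100 and −0.93 at MLP1. MLP2, GLE1, NUP100 and MLP1 each lost the call in some fits with 1 library left out. Depth also differed between the alleles, and at MLP1 and MLP2 they fell on either side of the wild-type split.

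A signal outside the pore genes was the level of chromosome I, on which NUP60 lies. The median log2 of its other coding genes against the wild-type mean was 0.464 and 0.518 in the rad50Δ libraries and 1.07 in both mre11Δ libraries. The highest wild-type library stood at 0.0748. No member had a wild-type library past the limit for an outlier among 4.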

How the results depend on the processing

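The pseudocounts, TMM and median-of-ratios scaling, filters on low values, edgeR and transcript rows left each count of called members within 1.5 times its main value. With DESeq2 the mre11-H125N count was 1 in place of 0. In a fit of only the groups compared, 0 members were called in rad50Δ (main 6), 1 in mre11Δ (4), 0 in rrp6Δ (1), 3 with MMS (7) and 3 between the mre11 alleles (5). Without the number 1 libraries the counts were 2 in rad50Δ, 1 in mre11Δ, 0 in rrp6Δ and 5 in rad50Δ against rrp6Δ (main 8). Against wild type 1 and 2 only they were 5 in mre11-H125N, 4 in rrp6Δ and 2 in ku70Δ, and against wild type 3 and 4 only 7 in mre11Δ and 0 in rrp6Δ. With each library left out in turn the counts ran from 0 to 9 in rad50Δ, 1 to 5 in mre11Δ, 0 to 1 in mre11-H125N, 0 to 1 in rrp6Δ, 10 to 18 in xrn1Δ, 0 to 0 in ku70Δ, 2 to 8 with MMS, 1 to 3 between the mre11 alleles and 1 to 1 in rad50Δ against rrp6Δ. The cause was not tested.

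Same-numbered libraries were not taken as pairs, since no label ties them and only 10 of 42 correlations of their deviations exceeded 0.1 (−0.551 to 0.693). Those among wild type, rad50Δ and mre11Δ were 0.437 to 0.693. With the replicate block, which compares with wild type 1 and 2, counts were 5 in rad50Δ, 3 in mre11Δ, 5 in mre11-H125N, 4 in rrp6Δ, 20 in xrn1Δ, 1 in ku70Δ and 7 with MMS, and of these 2, 2, 0, 1, 16, 0 and 5 were also called without it. The calls absent under the block were NUP49 (limma adjusted p = 0.0672), POM34 (0.0699), NUP116 (0.177) and NUP188 (0.156) in rad50Δ, GLE1 (0.136) and NUP57 (0.0679) in mre11Δ, and NDC1 (0.222) and NUP188 (0.0565) with MMS. Between the mre11 alleles the block gave 5, and 10 in rad50Δ against rrp6Δ, where MLP1 (0.00388) and MLP2 (0.0125) were added. NDC1 was lower in mre11-H125N with the block (0.0486) and against wild type 1 and 2 only (0.0494), and NUP1 in ku70Δ against that pair (0.0429).

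Signs changed at MLP1, MLP2 and NUP57 among the members named with a change against wild type, between the mre11 alleles or in rad50Δ against rrp6Δ, all without a call. NUP57 with MMS became 0.0955 without MMS 1 and −0.208 without MMS 2. MLP1 became 0.0579 in rad50Δ and 0.0688 in mre11Δ, both with the replicate block and against wild type 1 and 2 only. Against wild type 3 and 4 only, MLP1 became −0.0667 in rrp6Δ and −0.0303 with MMS, and MLP2 −0.159 in rrp6Δ and −0.0521 in ku70Δ. MLP2 with MMS became 0.221 with the block and against wild type 1 and 2 only, and 0.0266 without wild type 4. For MLP2, leaving out MMS 1 or MMS 2 gave 0.0952 and −0.387. Of the other values under all alternatives, 1267 kept their side of the threshold, 160 lost and 32 gained a call.

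With 2 libraries in most groups the spread between libraries set the precision, and each member value rested on at least 155 reads.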
